A study of Homo sapiens with 12 samples.

Results

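The clustered, replication-dependent histone genes were taken as the rows of the LNCaP table whose symbol starts with HIST1H, HIST2H, HIST3H or HIST4H and whose biotype is protein coding. There were 71 of them among 58735 genes in that table, and 68 were found by gene ID among the 61221 genes of the PC3 table, which uses newer symbols. The other 3 are H3 genes, and 2 of them, HIST1H3B and HIST1H3C, are listed there under other IDs as H3C2 and H3C3. By class they are 6 linker histone H1 genes, 17 H2A, 18 H2B, 15 H3 (12 found in PC3) and 15 H4 genes. By position, 34 lie in the proximal and 21 in the distal group of the HIST1 cluster on chromosome 6, 12 in HIST2 and 3 in HIST3 on chromosome 1, and 1 in HIST4 on chromosome 12. The study treated LNCaP and PC3, 2 established human prostate cancer cell lines labelled wild type, with erastin at 5 μmol/L, a blocker of the cystine/glutamate antiporter that is used to induce ferroptosis, or with its solvent DMSO. RNA was sequenced from 3 libraries each of LNCaP with erastin, LNCaP with DMSO, PC3 with erastin and PC3 with DMSO. No source used here gives the length of exposure. Both are single cell lines, so the results describe these 2 models.

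Histones H2A, H2B, H3 and H4 form the core of the nucleosome around which DNA is wound, and H1 binds the linker DNA between nucleosomes. The clustered genes lack introns for the most part and are transcribed mainly in S phase, when new DNA must be packaged. Their mRNAs usually end in a conserved stem-loop, bound by the stem-loop binding protein SLBP, in place of a poly(A) tail. Several of them are known to be made also as polyadenylated transcripts that run on past the stem-loop, above all in cells that have left the cycle.

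The stem-loop, the element that sets these mRNAs apart, was read from the GENCODE v29 transcripts (hg38), whose gene IDs are nearly all in the LNCaP table. The histone stem-loop consensus, with GG, CTT, T, AG and CC at fixed places, was searched on the sense strand and stood in 221 of 83129 protein-coding transcripts of the annotation (0.266%). It was present in an annotated transcript of 32 of the 71 genes, and a gene without a match shows only that these letters are not in the annotated model. The sites of 7 genes with large values below are shown with 5 flanking bases on each side, the stem and loop in capitals.
HIST1H2BC: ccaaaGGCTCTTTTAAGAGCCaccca
HIST1H2BD: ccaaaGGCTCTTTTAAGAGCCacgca
HIST2H2BE: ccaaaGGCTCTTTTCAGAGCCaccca
HIST1H2AC: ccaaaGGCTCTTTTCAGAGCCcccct
HIST1H3E: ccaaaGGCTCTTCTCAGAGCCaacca
HIST1H4E: tcaaaGGCCCTTTTCAGGGCCgccca
HIST1H4I: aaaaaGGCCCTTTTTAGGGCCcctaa
HIST1H2BC and HIST1H2BD share 1 stem-loop and HIST2H2BE and HIST1H2AC another, while the stem-loops of both H4 genes occurred among the 32 in no class but H4. After the site, the longest annotated transcript with it runs on for 1729 bases in HIST2H2BE, 1862 in HIST1H3E, 1114 in HIST1H2AC and 1022 in HIST1H4E, but for 212 in HIST1H4I, 116 in HIST1H2BC and 39 in HIST1H2BD. HIST1H2BC and HIST1H2BD have 2 annotated coding transcripts each, so these short ends need not be their only ones.

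Levels are FPKM, fragments scaled to gene length and a size per library, as the authors deposited them. The reads recovered from them numbered 16238260 to 17668554 per LNCaP erastin library, 14047979 to 17537654 per LNCaP DMSO library, 13709558 to 16350657 per PC3 erastin library and 15057830 to 15415538 per PC3 DMSO library. The library sizes implied by the scaling differed from these, at 17710643 to 18157101, 14968086 to 15907109, 13813023 to 16099776 and 13962481 to 14446127 in the same order. The reason was not tested. Genes above 0 numbered 30239 to 31311 in PC3 with erastin against 25679 to 26144 with DMSO, and 25055 to 26665 in LNCaP with erastin against 23476 to 26304 with DMSO. PC3 DMSO replicate 1 and both LNCaP replicates numbered 3 stood apart from the other libraries of their groups. The LNCaP markers KLK3, KLK2, TMPRSS2 and FOLH1 fell with erastin in LNCaP (log2 fold changes -3.56, -3.41, -1.92 and -1.03). The 5 PC3 markers (CAV1, VIM, CD44, FOSL1, AXL) summed to 94.5 to 98.1 FPKM with erastin and 570.3 to 663 FPKM with DMSO in PC3, and to at most 4.60 FPKM in LNCaP. The 4 epithelial markers summed to 317 to 366 FPKM with erastin and 263 to 368 FPKM with DMSO in LNCaP, and to 51.8 to 54.6 FPKM with erastin and 765 to 1075 FPKM with DMSO in PC3. The part of these marker changes in the results below was not tested. Summed leukocyte, endothelial and stromal markers stayed at or below 4.67 FPKM in every library, with 3 of 5, 2 of 3 and 2 of 4 of them at 0 throughout in LNCaP with DMSO. Nothing in the labels says that the 3 libraries of a group came from separate cultures, so the p-values measure the spread between these libraries, which may be technical.

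Histone mRNA was higher with erastin in both lines, and every class shared in it. All 71 genes together summed to 905, 834 and 1026 FPKM with erastin, against 293, 359 and 469 FPKM with DMSO in LNCaP. In PC3 the 68 genes found there summed to 2369, 2205 and 2192 FPKM with erastin, against 398, 468 and 488 FPKM with DMSO. The erastin libraries did not overlap the DMSO libraries in either line, nor in any single class, and the ratio of the means was 2.47 in LNCaP and 4.99 in PC3. As a share of all reads, the genes took 0.109%, 0.108% and 0.115% in LNCaP with erastin against 0.0304%, 0.0334% and 0.0368% with DMSO, and 0.222%, 0.221% and 0.213% in PC3 with erastin against 0.0449%, 0.0454% and 0.0467% with DMSO. In bulk libraries, fewer cells of a kind and less RNA per cell cannot be told apart. The share of reads from mitochondrial ribosomal RNA moved with the treatment as well, at 2.73% to 3.54% with erastin against 1.67% to 2.46% with DMSO in LNCaP and 1.95% to 2.18% against 0.628% to 0.944% in PC3, and so did that from small nuclear RNA in PC3, at 0.00732% to 0.00965% against 0.00231% to 0.00398%. In LNCaP the small nuclear RNA shares overlapped, at 0.00274% to 0.00458% with erastin and 0.00192% to 0.00589% with DMSO. These RNAs, like stem-loop histone mRNA, have no long poly(A) tail. The labels name the TruSeq RNA Sample Prep kit and not the step that selected RNA, and its part in the result was not tested.

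H2B had the highest summed FPKM of the classes in every group. Its sum averaged 469 ± 23.9 FPKM with erastin and 152 ± 26.9 FPKM with DMSO in LNCaP, and 1332 ± 90.7 FPKM with erastin and 198 ± 38.4 FPKM with DMSO in PC3 (SD, n = 3 each), ratios of 3.09 and 6.74. H4 averaged 64.7 ± 12.4 FPKM with erastin and 27.8 ± 6.13 FPKM with DMSO in LNCaP, and 295 ± 16.6 FPKM with erastin and 52.4 ± 9.20 FPKM with DMSO in PC3, ratios of 2.33 and 5.64. For H1 the averages were 114 ± 24.1 FPKM with erastin and 57.7 ± 16.2 FPKM with DMSO in LNCaP, and 209 ± 17.5 FPKM with erastin and 46.7 ± 12.1 FPKM with DMSO in PC3, ratios of 1.98 and 4.47. H2A averaged 228 ± 35.1 FPKM with erastin and 110.5 ± 36.3 FPKM with DMSO in LNCaP, and 378 ± 7.50 FPKM with erastin and 137 ± 7.18 FPKM with DMSO in PC3, ratios of 2.06 and 2.76. H3 averaged 45.9 ± 2.69 FPKM with erastin and 25.9 ± 4.16 FPKM with DMSO in LNCaP, and 41.1 ± 1.39 FPKM with erastin and 17.7 ± 2.28 FPKM with DMSO in PC3, ratios of 1.77 and 2.32. In PC3 the order of the ratios was thus H2B, H4, H1, H2A, H3, and in LNCaP it was H2B, H4, H2A, H1, H3. In LNCaP the neighbours from H4 to H3 in this order differed by less than the SD of either log2 ratio, and in PC3 so did H2B and H4. With H3C2 and H3C3, a setting chosen after seeing the data, H3 averaged 55.5 FPKM with erastin and 19.7 FPKM with DMSO in PC3, a ratio of 2.81, so that H3 and H2A change places there. The sums carry no test. With DMSO, HIST1H2BK made up 69.5% of the H2B sum in LNCaP and 60.4% in PC3. HIST3H2A made up 57.5% of the H2A sum with DMSO in LNCaP. The levels, ratios and order of the classes without such leading genes were not computed.

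**Figure D1:**
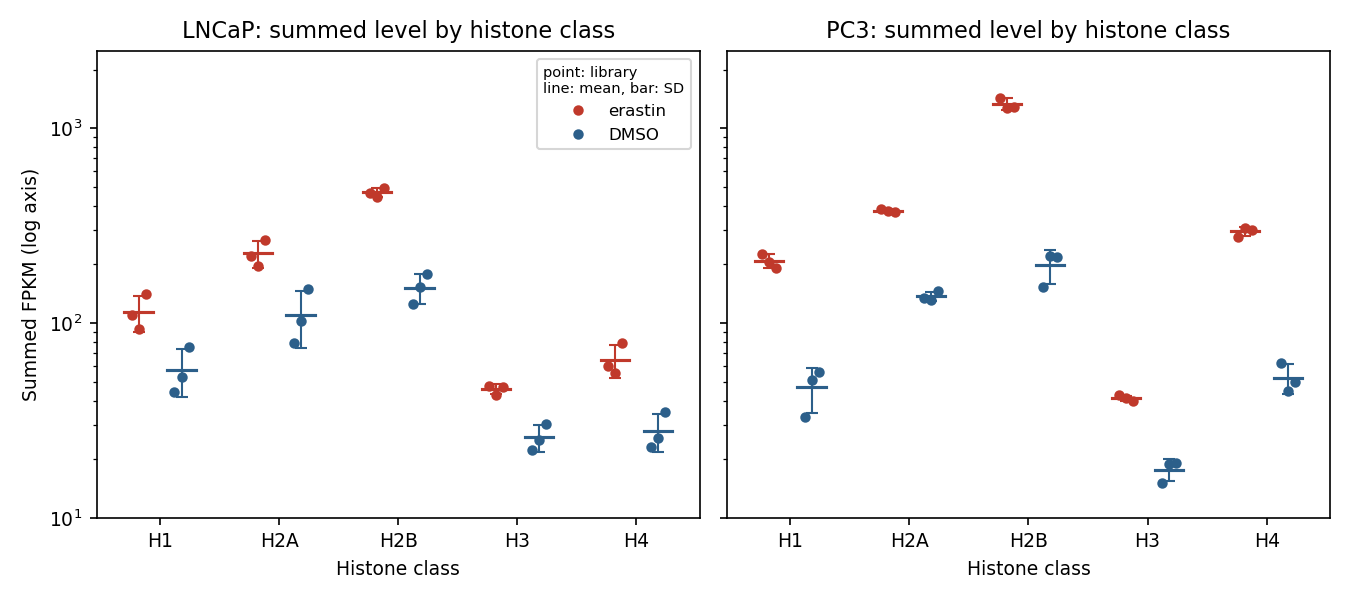
Summed FPKM of each histone class (log axis) in every library of LNCaP (left) and PC3 (right), erastin in red left of DMSO in blue; points are libraries, lines are means and bars are SD. The H2B sum with erastin was 446 to 494 FPKM in LNCaP and 1274 to 1436 FPKM in PC3, above all DMSO libraries of the same line (125 to 178 and 153 to 222 FPKM).

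Gene by gene, each line was tested with limma on log2(FPKM + 1), on genes that reached 1 FPKM in at least 3 of the 6 libraries, and a gene was called at an adjusted p under 0.05. In LNCaP 36 of the 71 genes passed this filter and 22 of them rose, while 13.8% of all 13683 genes tested rose and 17.7% fell. In PC3 49 of the 68 passed and 45 rose, while 34% of all 15371 genes tested rose and 32.4% fell. No histone gene that passed was called lower in either line, and none had a negative change at an unadjusted p under 0.05 or with voom on the recovered reads (0 in each line). The median log2 fold change of the genes that passed was 1.21 in LNCaP against -0.02 for all genes tested there, and 1.80 in PC3 against 0.00. With or without a call, the erastin libraries lay above all DMSO libraries in 29 of the 71 genes in LNCaP. In PC3 they did so in 51 of the 68. These counts include genes below the filter. Over all genes tested the shares were 22.2% in LNCaP and 36.7% in PC3. All 22 and all 45 called genes were separated in this way, which a call itself makes likely. Of the genes that passed, 3 in LNCaP and 17 in PC3 had no DMSO library at 1 FPKM and passed through the erastin libraries, which fixed their direction. Among the other genes tested, 19 of 33 rose in LNCaP and 28 of 32 in PC3. With a filter on the DMSO mean alone (at least 1 FPKM, a setting chosen after seeing the data), 17 of 30 genes rose in LNCaP and 25 of 29 in PC3. With replicate number as a block, 26 histone genes rose in LNCaP, and over all genes 3236 rose and 3657 fell there, against 1894 and 2418 without the block. Without PC3 DMSO replicate 1, 45 rose in PC3, and without LNCaP erastin replicate 3 or DMSO replicate 3, 21 and 27 rose in LNCaP.

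Linker histone genes were led by HIST1H1C (H1.2), which made up 93.8% of the H1 sum with erastin and 97.0% with DMSO in LNCaP, and 72.5% and 93.3% in PC3. HIST1H1C had 103, 84.2 and 134 FPKM with erastin, against 42.0, 51.5 and 74.3 FPKM with DMSO in LNCaP (log2 fold change 0.94, standard error 0.26, adjusted p 0.0349). This call was lost in 5 of 14 alternatives, 4 of them leaving out 1 library, with adjusted p up to 0.112. The gene had 167, 142 and 145 FPKM with erastin, against 31.0, 47.1 and 52.6 FPKM with DMSO in PC3 (log2 fold change 1.80, standard error 0.21, adjusted p 0.000312). On the FPKM + 1 scale, which understates the change of low genes, HIST1H1E (H1.4, chromosome 6, 26156354 to 26157107, plus strand) had the largest log2 fold change of any histone gene in PC3. It had 45.8, 51.2 and 38.1 FPKM with erastin, against 0.855, 1.47 and 1.51 FPKM with DMSO in PC3 (log2 fold change 4.34, standard error 0.18, adjusted p 9.13e-06), so the lowest erastin library stood far above every DMSO library. In LNCaP it had 5.16, 7.16 and 4.79 FPKM with erastin, against 0.975, 1.17 and 0.955 FPKM with DMSO (log2 fold change 1.71, standard error 0.15, adjusted p 0.000608). Of the others, HIST1H1T, the testis H1 gene, and HIST1H1D rose in PC3 (log2 fold changes 2.46 and 1.47) and were below the filter in LNCaP. HIST1H1T had 0.399, 0.193 and 0.0989 FPKM with DMSO in PC3 and passed there only through the erastin libraries, which fixed its direction. HIST1H1A and HIST1H1B were below the filter in both lines.

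Among H2A genes, 6 of 8 tested rose in LNCaP and 9 of 12 in PC3, where 6 of the 9 passed the filter only through the erastin libraries and 3 of the other 6 rose. Of the 4 histone genes tested and not called in PC3, 3 were in this class. HIST1H2AC (chromosome 6, 26124145 to 26139116, plus strand), the leading H2A gene with erastin, had 113, 106 and 147 FPKM with erastin, against 22.3, 23.6 and 35.5 FPKM with DMSO in LNCaP (log2 fold change 2.14, standard error 0.22, adjusted p 0.00105). In PC3 it had 259, 251 and 264 FPKM with erastin, against 97.3, 75.2 and 80.4 FPKM with DMSO (log2 fold change 1.61, standard error 0.13, adjusted p 7.40e-05). It was thus high in every erastin library and made up 53.5% of the H2A sum with erastin in LNCaP and 68.3% in PC3. HIST1H2AE had 8.63, 10.7 and 13.9 FPKM with erastin, against 2.10, 3.33 and 3.99 FPKM with DMSO in LNCaP (log2 fold change 1.55, standard error 0.23, adjusted p 0.00346). In PC3 it had 26.3, 31.9 and 24.3 FPKM with erastin, against 2.67, 2.99 and 4.47 FPKM with DMSO (log2 fold change 2.72, standard error 0.19, adjusted p 4.31e-05). HIST1H2AG, from a model of 2250 bases, rose in both lines, with a difference of -0.17 that did not pass the test (adjusted p 0.458). Its levels were 7.93, 6.85 and 8.73 FPKM with erastin, against 2.70, 2.68 and 3.17 FPKM with DMSO in LNCaP, and 11.8, 10.5 and 11.7 FPKM with erastin, against 3.88, 4.18 and 3.28 FPKM with DMSO in PC3 (log2 fold changes 1.20 and 1.37, adjusted p 0.000927 and 0.000124). HIST1H2AB was near 0 in PC3 with DMSO, at 9.21, 10.1 and 7.11 FPKM with erastin, against 0, 0.176 and 0 FPKM with DMSO, and was below the filter in LNCaP. HIST2H2AA4 had 6.70, 6.25 and 8.31 FPKM with erastin, against 0.592, 1.34 and 2.90 FPKM with DMSO in LNCaP, and 5.65, 3.71 and 3.74 FPKM with erastin, against 0, 0.736 and 0.882 FPKM with DMSO in PC3 (log2 fold changes 1.72 and 1.84, adjusted p 0.00761 in LNCaP). In PC3 both genes passed the filter through the erastin libraries alone, so their direction there was fixed and no p is given. It shares 96.9% of its 75-base windows with other histone genes, so its reads may be shared with near-identical copies such as HIST2H2AA3.

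The H2A genes not called were HIST3H2A and HIST2H2AC in both lines, and HIST1H2AI in PC3. HIST3H2A, the leading H2A gene of LNCaP with DMSO, had 62.1, 52.5 and 73.3 FPKM with erastin, against 42.9, 58.8 and 88.8 FPKM with DMSO in LNCaP and the groups overlapped (log2 fold change 0.03, standard error 0.28, adjusted p 0.946). In PC3 it had 54.4, 51.1 and 45.4 FPKM with erastin, against 21.5, 40.1 and 47.5 FPKM with DMSO, again with overlap (log2 fold change 0.53, standard error 0.28, adjusted p 0.138). Without PC3 DMSO replicate 3, its adjusted p in PC3 was 0.0462. HIST2H2AC had 4.70, 2.68 and 2.61 FPKM with erastin, against 3.77, 6.13 and 10.2 FPKM with DMSO in LNCaP, with overlap (adjusted p 0.121, and 0.0410 with a log2 fold change of -1.08 without DMSO replicate 1). Its PC3 levels of 2.41, 2.68 and 1.43 FPKM with erastin, against 2.57, 2.84 and 2.37 FPKM with DMSO overlapped (adjusted p 0.356). HIST1H2AI had 9.72, 7.23 and 4.94 FPKM with erastin, against 2.26, 3.75 and 1.17 FPKM with DMSO in LNCaP (log2 fold change 1.32, standard error 0.33, adjusted p 0.0226, a call lost in 4 of 13 alternatives), but 4.03, 2.497 and 3.58 FPKM with erastin, against 4.98, 3.72 and 4.66 FPKM with DMSO in PC3 with overlap (log2 fold change -0.33, standard error 0.18, adjusted p 0.142). It shares 60.1% of its 75-base windows with other histone genes.

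H2B had the highest ratio of sums in both lines, with 9 of 13 tested genes called higher in LNCaP and 16 of 16 in PC3. Without those that passed through the erastin libraries alone, 7 of 11 rose in LNCaP and 12 of 12 in PC3. HIST1H2BK (chromosome 6, 27146418 to 27146798, minus strand) had the highest FPKM of the clustered histone genes in both lines, on a model of 381 bases. By recovered reads summed over the erastin libraries, HIST2H2BE led it in LNCaP (15213 against 4244) and HIST1H2AC in PC3 (19075 against 13899). HIST1H2BK made up 44.1% of the H2B sum with erastin and 69.5% with DMSO in LNCaP, and 62.1% and 60.4% in PC3. It had 923, 769 and 789.5 FPKM with erastin, against 76.7, 145 and 137 FPKM with DMSO in PC3 (log2 fold change 2.83, standard error 0.25, adjusted p 0.000108). In LNCaP it had 208, 192 and 221 FPKM with erastin, against 80.0, 106 and 130.5 FPKM with DMSO (log2 fold change 0.99, standard error 0.21, adjusted p 0.0135). That call was lost without LNCaP DMSO replicate 2 (adjusted p 0.0524) and without erastin replicate 1 (adjusted p 0.0623). HIST1H2BC (chromosome 6, 26114873 to 26123926, minus strand) had the largest change in LNCaP. It had 44.0, 42.3 and 58.8 FPKM with erastin, against 3.44, 1.66 and 3.38 FPKM with DMSO there (log2 fold change 3.71, standard error 0.24, adjusted p 0.000255). In PC3, where its DMSO level was higher, it had 87.9, 81.1 and 80.3 FPKM with erastin, against 11.1, 13.4 and 12.9 FPKM with DMSO (log2 fold change 2.65, standard error 0.12, adjusted p 1.07e-05). HIST2H2BE (chromosome 1, 149884459 to 149886652, minus strand), whose model extends far past the stem-loop, had 126, 132 and 128 FPKM with erastin, against 18.8, 20.5 and 19.7 FPKM with DMSO in LNCaP (log2 fold change 2.65, standard error 0.12, adjusted p 0.000138). In PC3 it had 60.5, 61.5 and 64.5 FPKM with erastin, against 19.8, 23.7 and 20.4 FPKM with DMSO (log2 fold change 1.51, standard error 0.12, adjusted p 6.02e-05). Its erastin libraries were thus the higher ones in each line, and its DMSO levels in the lines were close, although the tables were normalized separately. HIST1H2BD had 50.03, 42.9 and 53.7 FPKM with erastin, against 7.98, 10.5 and 10.8 FPKM with DMSO in LNCaP, and 134, 132 and 138 FPKM with erastin, against 24.7, 18.3 and 22.7 FPKM with DMSO in PC3 (log2 fold changes 2.22 and 2.58, adjusted p 0.000314 and 1.78e-05).

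HIST1H2BG, HIST1H2BJ, HIST1H2BO, HIST1H2BE and HIST1H2BF had larger log2 fold changes of FPKM + 1 in PC3 than in LNCaP. That scale understates the change of low genes. For HIST1H2BE the call of a difference between the lines was lost in 9 of 18 alternatives, with values from -1.08 to -0.38. It was lost in 2 of 18 for HIST1H2BF and 1 of 18 for HIST1H2BG, and held for HIST1H2BJ and HIST1H2BO. HIST1H2BG had 4.89, 4.63 and 5.56 FPKM with erastin, against 0.827, 0.533 and 1.11 FPKM with DMSO in LNCaP, and 84.6, 83.9 and 76.4 FPKM with erastin, against 6.49, 8.44 and 8.43 FPKM with DMSO in PC3 (log2 fold changes 1.73 and 3.24). HIST1H2BJ had 9.65, 9.39 and 7.79 FPKM with erastin, against 1.97, 2.51 and 3.17 FPKM with DMSO in LNCaP, and 65.8, 63.7 and 59.1 FPKM with erastin, against 4.15, 4.66 and 7.78 FPKM with DMSO in PC3 (log2 fold changes 1.49 and 3.33). Both were called in both lines, with adjusted p of at most 0.00104, and their erastin and DMSO libraries did not overlap. HIST1H2BO was near the floor in PC3 with DMSO, at 18.1, 14.7 and 17.1 FPKM with erastin, against 0.188, 0.727 and 0.373 FPKM with DMSO (log2 fold change 3.64). In LNCaP it had 4.08, 2.60 and 2.52 FPKM with erastin, against 0.877, 1.81 and 1.89 FPKM with DMSO, without overlap but not past the threshold (adjusted p 0.0567). HIST1H2BB was near 0 in PC3 with DMSO, at 9.31, 7.87 and 5.22 FPKM with erastin, against 0, 0.182 and 0.186 FPKM with DMSO, and was below the filter in LNCaP. HIST1H2BO and HIST1H2BB passed in PC3 only through the erastin libraries, which fixed their direction. HIST1H2BE had 3.03, 3.24 and 3.15 FPKM with erastin, against 0.672, 0.559 and 0.557 FPKM with DMSO in LNCaP, and 9.58, 12.8 and 12.2 FPKM with erastin, against 2.80, 1.39 and 1.15 FPKM with DMSO in PC3. HIST1H2BF had 4.83, 4.01 and 3.12 FPKM with erastin, against 0.894, 0.631 and 0.657 FPKM with DMSO in LNCaP, and 12.7, 14.1 and 11.2 FPKM with erastin, against 1.74, 1.27 and 1.43 FPKM with DMSO in PC3. The log2 fold changes of HIST1H2BE were 1.37 in LNCaP and 2.21 in PC3, and those of HIST1H2BF 1.52 and 2.46; in LNCaP their direction was fixed by the filter in the same way. The 4 H2B genes not called in LNCaP were HIST1H2BL, HIST1H2BN, HIST1H2BO and HIST3H2BB, with log2 fold changes of -0.18, 0.28, 0.69 and 0.42.

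Among H3 genes found by ID, 2 of 6 tested rose in LNCaP and 5 of 6 in PC3, where 2 of the 5 (HIST1H3J and HIST3H3) passed only through the erastin libraries. Their log2 fold changes reached 1.24 in LNCaP and 1.52 in PC3, while H3C2 and H3C3, the PC3 entries of HIST1H3B and HIST1H3C, had 1.91 and 2.30. HIST1H3E (chromosome 6, 26224199 to 26227473, plus strand), with the only stem-loop of its letters, had 12.1, 10.4 and 11.4 FPKM with erastin, against 3.69, 4.11 and 4.84 FPKM with DMSO in LNCaP (log2 fold change 1.24, standard error 0.12, adjusted p 0.000841). In PC3 it had 14.0, 14.2 and 15.4 FPKM with erastin, against 5.32, 5.40 and 5.78 FPKM with DMSO (log2 fold change 1.26, standard error 0.11, adjusted p 9.27e-05). Every erastin library lay above every DMSO library in both lines. HIST1H3H, the leading H3 gene of LNCaP, had 21.1, 19.8 and 28.4 FPKM with erastin, against 12.6, 14.2 and 20.8 FPKM with DMSO there, with overlap (log2 fold change 0.53, standard error 0.22, adjusted p 0.113; adjusted p 0.00666 with the replicate block). Its PC3 levels were 8.54, 8.12 and 8.79 FPKM with erastin, against 7.70, 7.83 and 7.01 FPKM with DMSO, with no overlap but a small step (log2 fold change 0.16, standard error 0.11, adjusted p 0.242). Of the other H3 genes, HIST1H3A was called in both lines (log2 fold changes 1.01 and 1.15). HIST2H3D, HIST1H3J and HIST3H3 were called in PC3, and HIST3H3 was below the filter in LNCaP. The difference between lines was -0.66 for HIST2H3D (adjusted p 0.244). For HIST1H3J it was -0.87, and no p is given because the filter fixed its direction in PC3. In LNCaP 4 H3 genes were listed at 0 in every library.

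Among H4 genes, 3 of 7 tested rose in LNCaP and 11 of 11 in PC3. Without those that passed only through the erastin libraries, 2 of 6 rose in LNCaP and 7 of 7 in PC3. HIST1H4H (chromosome 6, 26277609 to 26285638, minus strand), the leading H4 gene with erastin, had 23.9, 22.2 and 29.1 FPKM with erastin, against 6.76, 7.88 and 8.45 FPKM with DMSO in LNCaP, and 106, 127 and 119 FPKM with erastin, against 31.6, 22.5 and 22.1 FPKM with DMSO in PC3 (log2 fold changes 1.58 and 2.18, adjusted p 0.000627 and 6.04e-05). HIST1H4I had 22.3, 16.6 and 28.3 FPKM with erastin, against 10.3, 12.4 and 18.4 FPKM with DMSO in LNCaP, where the groups overlapped (log2 fold change 0.68, standard error 0.26, adjusted p 0.0911; adjusted p 0.0111 with the replicate block). In PC3 it had 97.4, 99.7 and 117 FPKM with erastin, against 24.0, 14.3 and 16.6 FPKM with DMSO, with a wide gap (log2 fold change 2.48, standard error 0.20, adjusted p 7.16e-05). HIST1H4E had 5.27, 6.11 and 7.90 FPKM with erastin, against 1.30, 1.18 and 1.23 FPKM with DMSO in LNCaP, and 22.2, 22.0 and 20.0 FPKM with erastin, against 1.73, 1.96 and 1.77 FPKM with DMSO in PC3 (log2 fold changes 1.71 and 2.99, adjusted p 0.000501 and 7.69e-06). HIST4H4 (chromosome 12, 14767999 to 14771131, minus strand), the lone gene outside the larger clusters, had 14.7, 15.0 and 11.9 FPKM with erastin, against 1.03, 0.644 and 0.744 FPKM with DMSO in PC3 (log2 fold change 3.04, standard error 0.15, adjusted p 1.33e-05) and stayed under 1 FPKM in LNCaP. HIST1H4D had 3.38, 2.82 and 2.35 FPKM with erastin, against 0.428, 0 and 2.10 FPKM with DMSO in LNCaP (adjusted p 0.0552, and 0.0344 with the replicate block), and 11.1, 15.7 and 8.56 FPKM with erastin, against 0.918, 0 and 1.82 FPKM with DMSO in PC3 (adjusted p 0.000751). Its model holds 312 bases, so few reads stand behind each value. HIST1H4K, all of whose 75-base windows occur in other histone genes, had 1.25, 1.06 and 1.63 FPKM with erastin, against 1.28, 1.61 and 0.210 FPKM with DMSO in LNCaP, and 13.0, 13.2 and 11.7 FPKM with erastin, against 1.61, 2.88 and 4.55 FPKM with DMSO in PC3 (log2 fold changes 0.25 and 1.83, adjusted p 0.559 and 0.000905). The groups overlapped in LNCaP and not in PC3.

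**Figure D2:**
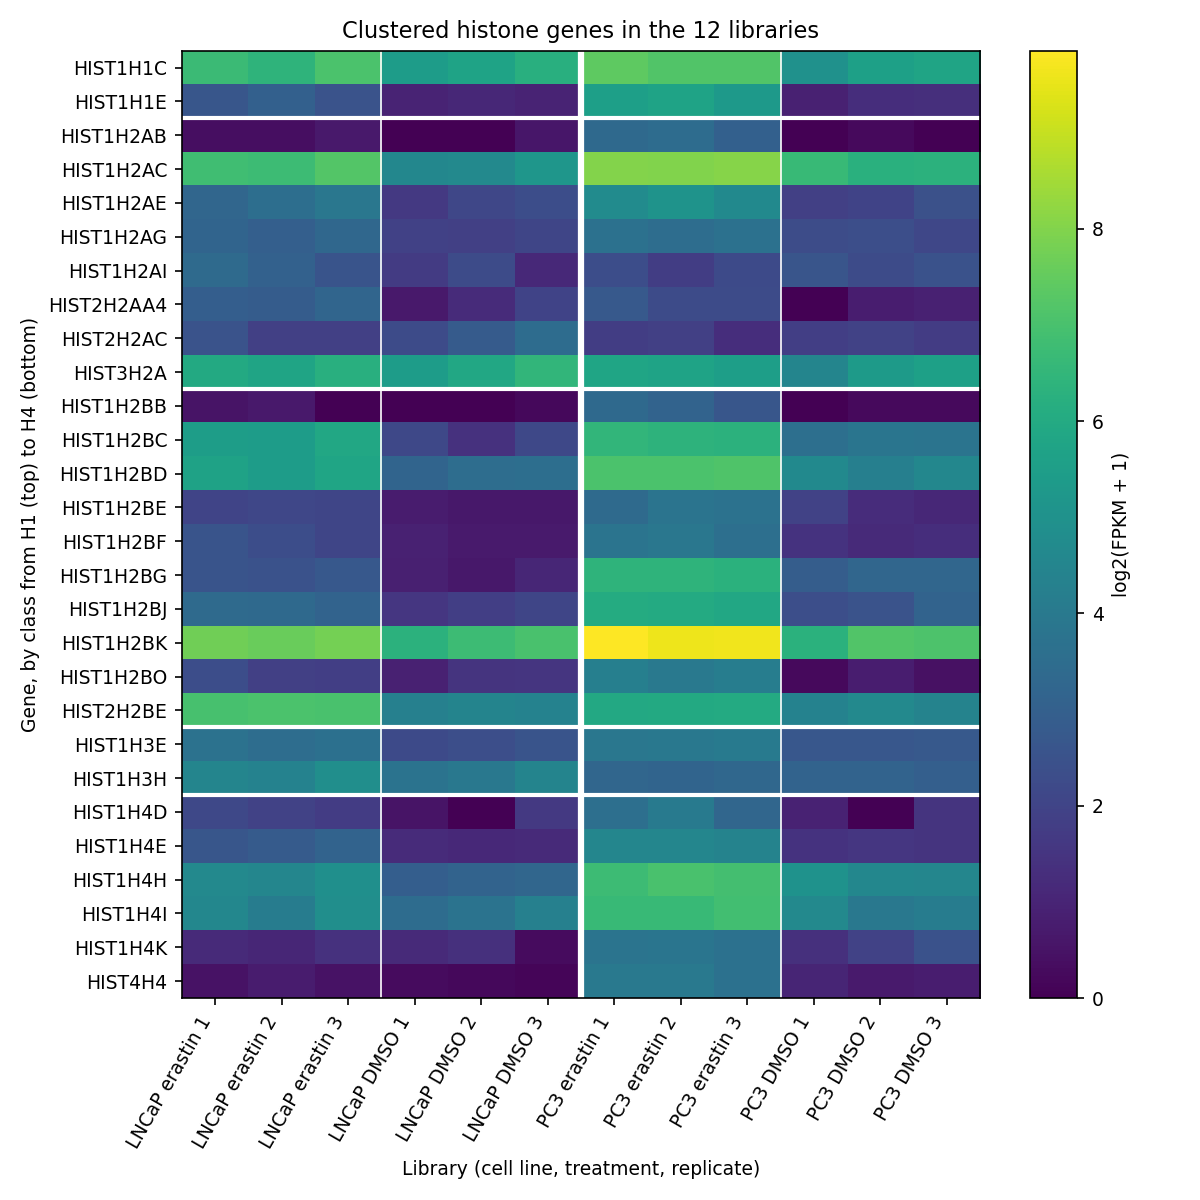
log2(FPKM + 1) of the 28 genes described with values in every library, rows ordered by class from H1 to H4, columns by line with erastin left of DMSO. Most rows are brighter with erastin than with DMSO in PC3, but HIST1H2AI and HIST2H2AC are not, HIST3H2A and HIST1H3H differ little, and HIST1H2BK is the brightest row.

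The response to erastin differed between the lines for 20 of the 35 histone genes tested in both, by the interaction term of 1 limma fit over the 12 libraries. The log2 fold change was higher in LNCaP for 3 genes, while it was higher there for 21.4% of the 11823 genes tested, and it was higher in PC3 for 17, against 23% of all genes. The median difference, LNCaP minus PC3, was -0.83 over the histone genes and 0.00 over all genes tested. H2B held 12 of the 20. HIST1H2BC and HIST2H2BE rose more in LNCaP (differences 1.06 and 1.15, adjusted p 0.00924 and 0.000228), and 10 rose more in PC3. The largest of these 10 differences was that of HIST1H2BO (-2.94), given without a p because the filter fixed its direction in PC3. HIST1H2BN came next (-1.93, adjusted p 7.71e-06). Of the 17, HIST1H2BL, HIST1H2BO and HIST1H3J passed the filter in PC3, and HIST1H2BE and HIST1H2BF in LNCaP, only through the erastin libraries. HIST1H1E differed by -2.63 (adjusted p 5.12e-06), and HIST1H2BK by -1.84 (adjusted p 0.00116). Among H4 genes 4 of 7 differed, each with the higher change in PC3, and among H2A genes HIST1H2AE and HIST1H2AI did, in opposite directions. For HIST1H3E the difference was -0.014 with a standard error of 0.17. The count of 17 ranged from 4 with a filter at a mean of 5 FPKM to 32 without a filter. Of the genes rising in both lines there were 21, which is 21 of the 22 called in LNCaP and 21 of the 31 called in PC3 and tested in LNCaP. Over all genes tested, 13.8% rose in LNCaP and 34% in PC3, and the share rising in both was not counted. Among the 21, the direction was fixed by the filter for HIST1H2BE, HIST1H2BF and HIST1H4B in LNCaP. In PC3 it was fixed for HIST2H2AA3, HIST2H2AA4 and HIST1H4B.

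**Figure D3:**
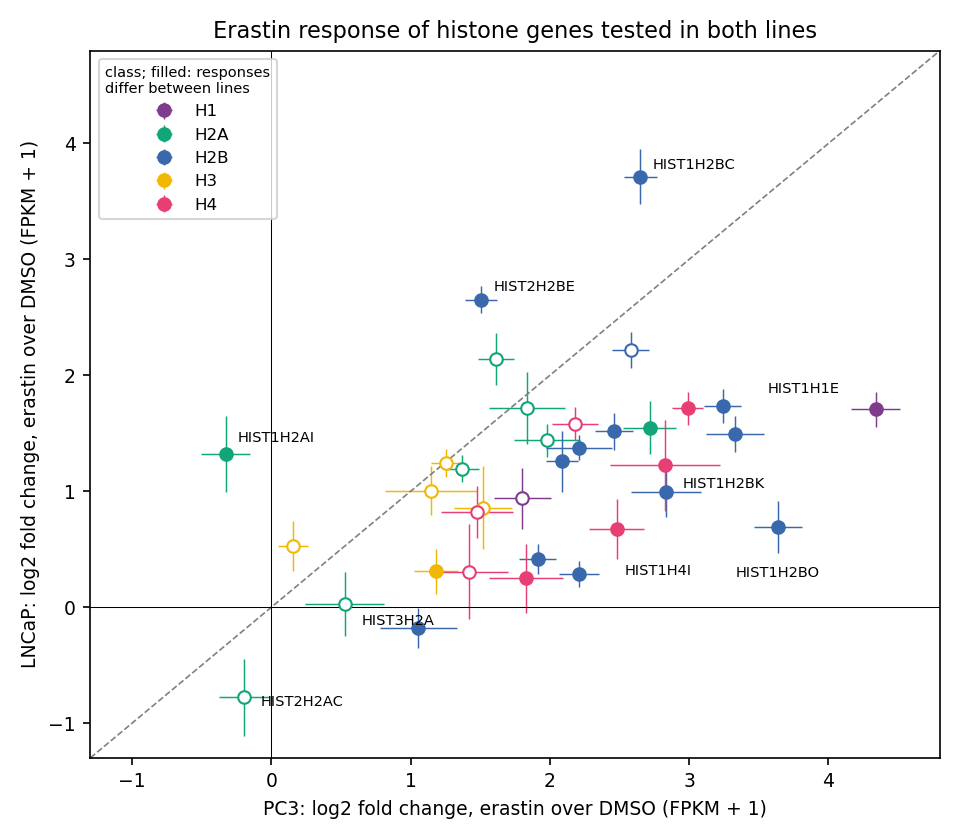
log2 fold change, erastin over DMSO, of the 35 histone genes tested in both lines, LNCaP on the vertical and PC3 on the horizontal axis, coloured by class; bars are standard errors, filled points are the 20 genes whose responses differed between the lines, and the dashed line marks equal change. HIST1H2BC, HIST2H2BE and HIST1H2AI are the filled points above the line and the other 17 lie below it.

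The ratios of the cluster sums moved with their leading genes, and sums and medians over genes put the clusters in different orders. The HIST2 genes summed to 156, 155 and 151 FPKM with erastin, against 28.6, 32.7 and 37.6 FPKM with DMSO in LNCaP, a ratio of 4.68, of which HIST2H2BE made up 83.5% with erastin and 59.7% with DMSO; without this gene the ratio was 1.91. In PC3 they summed to 98.1, 95.2 and 96.4 FPKM with erastin, against 26.5, 31.2 and 28.7 FPKM with DMSO, a ratio of 3.36, or 4.61 without HIST2H2BE. In HIST2, 4 of 6 tested genes rose in LNCaP and 7 of 8 in PC3 (median log2 fold changes 1.35 and 1.56). The distal HIST1 group averaged 292 ± 25.4 FPKM with erastin and 156 ± 33.2 FPKM with DMSO in LNCaP, and 1071 ± 83.0 FPKM with erastin and 167 ± 35.0 FPKM with DMSO in PC3, ratios of 1.88 and 6.42; HIST1H2BK alone made up 77.3% of its PC3 sum with erastin, and without it the ratios were 1.70 and 5.15. Of its tested genes 4 of 12 rose in LNCaP and 13 of 15 in PC3 (medians 0.60 and 1.42). The proximal HIST1 group averaged 409.6 ± 65.5 FPKM with erastin and 119.6 ± 28.5 FPKM with DMSO in LNCaP, and 1015 ± 22.9 FPKM with erastin and 218 ± 10.3 FPKM with DMSO in PC3, ratios of 3.42 and 4.66. There 14 of 16 tested genes rose in LNCaP and 22 of 22 in PC3 (medians 1.53 and 2.33), and without HIST1H2AC the ratios were 3.11 and 5.68. In PC3, 6 genes each of the proximal and distal group passed only through the erastin libraries, and 4 of HIST2, and in LNCaP 3 genes of the proximal group did. The lone HIST4 gene, HIST4H4, had a log2 fold change of 3.04 in PC3, above each of these medians. HIST3, mostly HIST3H2A, summed to 64.5, 55.5 and 74.9 FPKM with erastin, against 44.2, 61.1 and 90.4 FPKM with DMSO in LNCaP, with overlap and a ratio of 0.995 (1.32 without HIST3H2A), and to 63.7, 60.4 and 53.7 FPKM with erastin, against 22.3, 41.8 and 48.9 FPKM with DMSO in PC3, a ratio of 1.57, or 6.83 without HIST3H2A. These settings were chosen after seeing the data.

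Many H2A and H2B genes stand head to head, sharing the stretch between their starts. There were 12 such pairs on opposite strands with 218 to 356 bases between the annotated genes, 11 of them H2A with H2B. Of the pairs with both genes tested, both rose in 3 of 7 in LNCaP and in 6 of 9 in PC3. In 2 and 3 pairs 1 of the 2 rose. Over all genes tested, 13.8% rose in LNCaP and 34% in PC3. The 6 include HIST1H2AJ with HIST1H2BM, HIST1H2BK with HIST1H2AH and HIST1H3J with HIST1H2BO. Of these genes, all but HIST1H2BK passed the filter in PC3 only through the erastin libraries, which fixed their direction. The genes of a pair did not always change by like amounts. In the pair HIST2H2BE and HIST2H2AC, 322 bases apart, the H2B gene had log2 fold changes of 2.65 in LNCaP and 1.51 in PC3, and the H2A gene -0.78 and -0.20. In HIST1H2BC and HIST1H2AC, 218 bases apart, both rose in both lines, by 3.71 and 2.14 in LNCaP and 2.65 and 1.61 in PC3. The pair HIST1H2BL and HIST1H2AI had a different called gene in each line. HIST1H2BL had -0.18 in LNCaP, not called, and 1.06 in PC3, while HIST1H2AI had 1.32 and, not called, -0.33. In PC3 HIST1H2BL had 0, 0.851 and 0.437 FPKM with DMSO and passed only through the erastin libraries, which fixed its direction there. The LNCaP call of HIST1H2AI was lost in 4 of 13 alternatives, and this gene shares 60.1% of its 75-base windows with other histone genes. The difference between the lines was 1.65 for HIST1H2AI (adjusted p 0.00474 by the interaction test), with the limits just given. For HIST1H2BL it was -1.24, and no p is given because the filter fixed its direction in PC3.

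**Figure D4:**
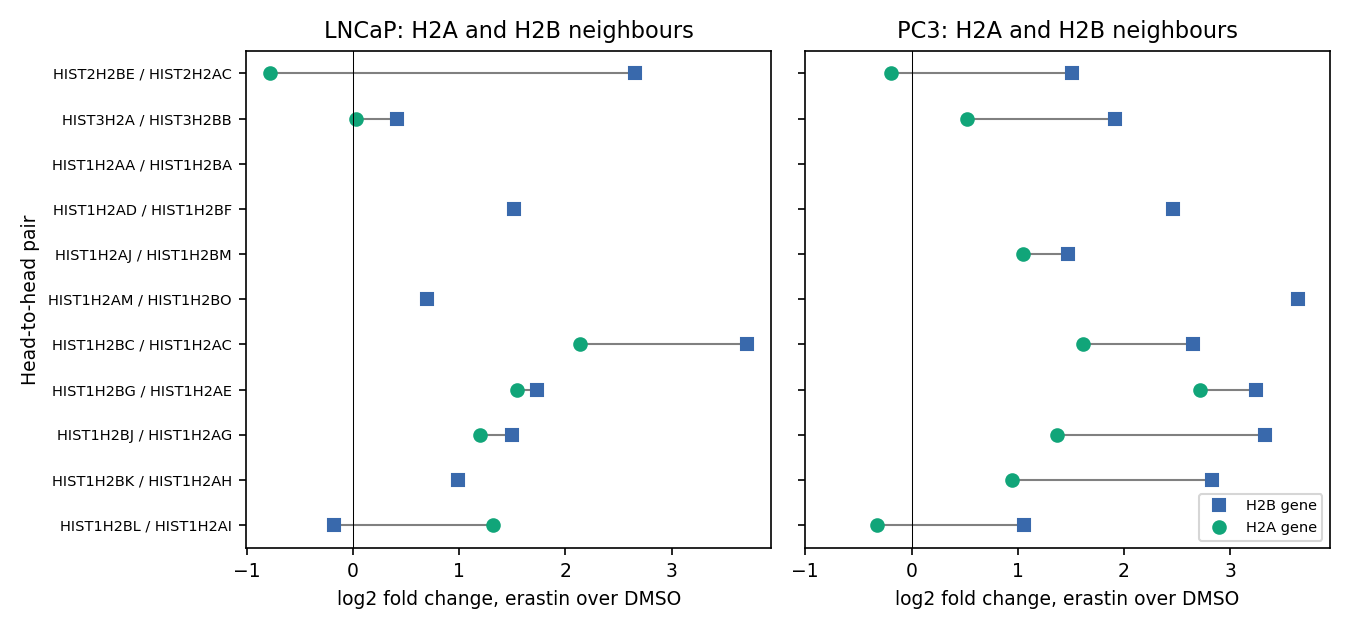
log2 fold change, erastin over DMSO, of the H2B gene (square) and the H2A gene (circle) of each of the 11 head-to-head H2A and H2B pairs, in LNCaP (left) and PC3 (right); a symbol is missing where the gene was below the filter. The H2B gene lies to the right of its H2A partner in every pair with both symbols except HIST1H2BL and HIST1H2AI in LNCaP.

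The annotated ends of the genes differ. An AATAAA or ATTAAA, the usual poly(A) signals, stood in the last 40 bases of an annotated coding transcript of 22 genes. Of these, 21 also hold the stem-loop, in the same or another transcript. Over all protein-coding transcripts the share with such a signal was 42.9%. Of these 22 genes, 17 passed the filter and 13 rose in LNCaP, and 19 passed and 17 rose in PC3. Of the other 49 genes, 19 passed and 9 rose in LNCaP, and of the 46 found in PC3, 30 passed and 28 rose. The median log2 fold changes with and without the signal were 1.44 and 0.86 in LNCaP and 1.84 and 1.70 in PC3. In PC3, 3 of the genes with the signal and 14 of those without passed only through the erastin libraries, and apart from these 14 of 16 rose in each set. In LNCaP, without the genes that passed in that way, 12 of 16 with and 7 of 17 without the signal rose. Model length was split at 1000 bases in the same way. Without the models that passed through the erastin libraries alone (1 long and 16 short in PC3), 8 of 12 long and 11 of 21 short models rose in LNCaP, and 15 of 16 long and 13 of 16 short models in PC3. HIST1H1E, HIST1H2BK and HIST1H2BO, among the largest changes in PC3, have neither element in the annotated model. FPKM divides by the annotated length, and how reads past the end of a short model bear on these values was not tested. The groups carry no test.

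Promoter sequence was taken from RefSeq (GRCh38.p14), 250 bases before the start of 66 of the 71 genes that could be matched by symbol. The motifs searched on both strands were the octamer ATTTGCAT, known as the site of OCT1 in H2B promoters, CCAAT, and TATAAA. The octamer was found in 14 of 18 H2B and 11 of 16 H2A promoters, in none of the 6 H1, 13 H3 and 13 H4 promoters, and in 1.63% of all 35116 promoters of this length. CCAAT was found in every H1, H2A, H2B and H3 promoter matched and in 3 of 13 of H4 (32.0% of all promoters), and TATAAA in 44 of the 66 (10.7% of all). Within H2B, the octamer stood in 8 of 9 genes that rose in LNCaP, in 1 of the 4 not called there (HIST1H2BO) and in 5 of 5 below the filter, and in 12 of 16 that rose in PC3. A match is a description, not a site, and these counts carry no test. The HIST1H2BC window reaches over the start of its partner HIST1H2AC. The exception among those that rose in LNCaP was HIST1H2BD. Shown are HIST2H2BE and HIST1H2BC, which rose most in LNCaP and hold the octamer, HIST1H2BD, which came next and lacks it, HIST1H2BO, which holds it and was not called there, and HIST1H2BL, which was not called and lacks it; motifs are in capitals, and a capital run of ATTTGCAT or its complement ATGCAAAT is the octamer.
HIST2H2BE, chr1:149886683-149886932, minus strand: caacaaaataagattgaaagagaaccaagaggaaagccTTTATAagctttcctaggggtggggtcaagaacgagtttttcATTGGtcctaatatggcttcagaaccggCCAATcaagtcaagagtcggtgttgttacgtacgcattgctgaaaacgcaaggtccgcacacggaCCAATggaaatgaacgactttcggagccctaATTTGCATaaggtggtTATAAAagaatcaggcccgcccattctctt
HIST1H2BC, chr6:26123927-26124176, minus strand: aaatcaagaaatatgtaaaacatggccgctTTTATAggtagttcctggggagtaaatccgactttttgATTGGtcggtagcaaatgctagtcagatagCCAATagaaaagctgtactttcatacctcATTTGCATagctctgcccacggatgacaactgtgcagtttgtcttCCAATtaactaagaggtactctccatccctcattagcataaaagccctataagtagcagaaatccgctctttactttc
HIST1H2BD, chr6:26157871-26158120, plus strand: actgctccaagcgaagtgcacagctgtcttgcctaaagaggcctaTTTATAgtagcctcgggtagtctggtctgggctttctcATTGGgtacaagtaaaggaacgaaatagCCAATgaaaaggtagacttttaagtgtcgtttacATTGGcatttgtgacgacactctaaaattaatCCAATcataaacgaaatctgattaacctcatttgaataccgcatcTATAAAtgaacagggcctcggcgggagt
HIST1H2BO, chr6:27893175-27893424, plus strand: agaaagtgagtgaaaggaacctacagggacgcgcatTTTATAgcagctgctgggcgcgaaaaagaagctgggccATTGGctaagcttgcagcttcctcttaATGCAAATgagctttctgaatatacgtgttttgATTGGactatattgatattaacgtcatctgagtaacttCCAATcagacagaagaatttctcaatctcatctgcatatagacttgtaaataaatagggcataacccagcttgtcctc
HIST1H2BL, chr6:27807930-27808179, minus strand: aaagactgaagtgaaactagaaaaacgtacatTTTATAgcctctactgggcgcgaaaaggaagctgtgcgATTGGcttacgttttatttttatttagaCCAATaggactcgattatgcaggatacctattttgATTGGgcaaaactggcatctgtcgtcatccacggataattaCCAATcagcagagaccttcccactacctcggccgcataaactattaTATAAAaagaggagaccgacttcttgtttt
In all 5 promoters CCAAT or its complement ATTGG occurs more than once, and TTTATA, the complement of TATAAA, stands in the 5′ part.

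Genes that serve the same mRNAs and proteins were counted from lists of related genes, beside the 13.8% higher and 17.7% lower over all genes tested in LNCaP and the 34% higher and 32.4% lower in PC3. In PC3 the variant and chaperone counts, the S-phase genes that rose and the processing and polyadenylation genes that fell lie near or below these shares. The same holds in LNCaP for the processing and polyadenylation genes that fell. Of 13 S-phase genes, 12 fell in LNCaP, while 4 rose and 7 fell in PC3, so histone mRNA was higher in LNCaP while the replication genes were lower. MCM7, a subunit of the replicative helicase, had 7.18 ± 0.404 FPKM with erastin and 64.3 ± 7.07 FPKM with DMSO in LNCaP, and 21.7 ± 1.60 FPKM with erastin and 48.5 ± 10.4 FPKM with DMSO in PC3 (log2 fold changes -2.99 and -1.11). RRM2, the small ribonucleotide reductase subunit, had log2 fold changes of -3.07 and -0.85. PCNA, the sliding clamp, fell in LNCaP and rose in PC3, with 58.0 ± 11.4 FPKM with erastin and 179 ± 51.9 FPKM with DMSO in LNCaP, and 333 ± 13.7 FPKM with erastin and 67.4 ± 2.01 FPKM with DMSO in PC3 (log2 fold changes -1.59 and 2.29, difference -3.87, adjusted p 1.20e-06). CCNE2, a cyclin of S-phase entry, did so too (-0.43 and 2.52).

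Of 17 genes for transcription and 3′ processing of histone mRNA, 4 fell in LNCaP, and 8 rose and 4 fell in PC3. SLBP, the stem-loop binding protein, had 60.6 ± 3.02 FPKM with erastin and 33.4 ± 3.60 FPKM with DMSO in PC3 (log2 fold change 0.85, adjusted p 0.000834). In LNCaP it had 38.5 ± 9.06 FPKM with erastin and 60.8 ± 15.0 FPKM with DMSO (adjusted p 0.0781). LSM11, a subunit of the U7 snRNP that cuts histone pre-mRNA, had log2 fold changes of -0.45 in LNCaP and 1.67 in PC3, and ZNF473, another U7-associated factor, rose by 1.53 in PC3. CPSF3, the endonuclease that makes the cut, fell there (log2 fold change -1.38). Of 10 polyadenylation genes, 1 fell in LNCaP, NUDT21 (-1.23), a factor that favours distal poly(A) sites, while 5 rose and 1 fell in PC3, led by PCF11, a termination factor (2.76).

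Of 22 histone chaperone and deposition genes, 21 were tested; 10 fell in LNCaP, and 6 rose and 8 fell in PC3. ASF1B, an H3 and H4 chaperone of S phase, had 3.67 ± 0.475 FPKM with erastin and 31.5 ± 5.66 FPKM with DMSO in LNCaP, and 68.9 ± 4.54 FPKM with erastin and 17.2 ± 3.79 FPKM with DMSO in PC3 (log2 fold changes -2.79 and 1.96, difference -4.75, adjusted p 1.68e-07). HJURP, the chaperone of CENP-A, had the same opposite signs, at -1.85 in LNCaP and 1.16 in PC3. TONSL and CHAF1A, next by size, did not. TONSL had -1.70 in LNCaP and -0.46 in PC3, not called there, and CHAF1A had -1.34 and -0.70. Of 12 genes for histone variants made outside S phase or at centromeres, 11 were tested; 6 fell in LNCaP, and 3 rose and 4 fell in PC3. The centromeric H3 variant gene CENPA had log2 fold changes of -1.72 in LNCaP and -0.003 in PC3 (not called in PC3). H2AFZ (H2A.Z) had -1.41 and 0.40, and H3F3A, an H3.3 gene, -0.43, not called, and 1.28. The median log2 fold changes in LNCaP and PC3 were -2.10 and -0.58 for the S-phase list, -0.28 and 0.33 for processing, -0.25 and 0.37 for polyadenylation, -0.61 and -0.38 for chaperones and -0.55 and 0.00 for variants, beside -0.02 and 0.00 over all genes.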

How the data were processed

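RNA from 12 libraries was harvested with Trizol and prepared with the Illumina TruSeq RNA Sample Prep kit, per the labels' protocols. The submitters' processing notes name HISAT2 2.0.5 and build hg38; no source used here states the counting tool, annotation or strand setting. The authors deposited 1 FPKM table per line, with gene coordinates and lengths. Whole reads were recovered from FPKM and length, with 100% of values whole within 0.1 reads.

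The main test was limma 3.58.1 (R 4.3.3) with a variance trend on log2(FPKM + 1), two-sided, Benjamini-Hochberg adjusted over every gene with 1 FPKM or more in 3 of 6 libraries. Fold changes on this scale understate those of low genes. The difference between lines is the interaction term over genes kept in both. The fits were tested on simulated data. Values in every library are given for up to 12 called genes per line by size and for every gene averaging at least 10 FPKM in a group. For the related lists, values are given for a few called genes of large size. In the S-phase list PCNA and CCNE2 are described at more length than TYMS and MCM2, whose changes in LNCaP were larger. SLBP, HIST2H2AC and HIST1H2AI were added after their values were seen. The sum of the LNCaP marker list is not reported here. The genes, lists, tests and motifs were chosen with earlier results of these data known. Same-numbered LNCaP libraries deviated together (correlations 0.254, 0.347 and 0.744), which met a criterion of all over 0.1. PC3 libraries did not meet it (-0.380, -0.0135 and -0.311). In LNCaP, erastin replicate 2 went closer with DMSO replicate 1 (0.612) than with its own number (0.347), so whether equal numbers mark pairs is uncertain. The main tests left replicate number out, and the block was an alternative. Replicates differed beyond counting noise (chi-square over degrees of freedom at least 3.39), so each library was counted as its own sample. For 1 gene the model length differed between the 2 tables. Alternatives covered the pseudocount, filter, scaling, voom, the replicate block and leaving out each library; sums with H3C2 and H3C3 or without a cluster's leading gene were added after seeing the data. By shared 75-base windows, 12 genes share more than 50% with other histone genes and 45 share none.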

Additional observations from a re-analysis of the deposited data

Results flagged for a closer look

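The erastin response differed between the lines, by the interaction test over all 12 libraries, for 20 clustered histone genes. The difference, LNCaP minus PC3 in log2 fold change, was positive for HIST1H2AI (1.65), HIST1H2BC (1.06) and HIST2H2BE (1.15). For the H1 gene HIST1H1E it was -2.63 and for the H2A gene HIST1H2AE -1.17. In the H2B class it was -0.83 for HIST1H2BE, -0.94 for HIST1H2BF, -1.51 for HIST1H2BG, -1.84 for HIST1H2BJ, -1.84 for HIST1H2BK, -1.24 for HIST1H2BL, -1.93 for HIST1H2BN, -2.94 for HIST1H2BO, -0.83 for HIST2H2BF and -1.50 for HIST3H2BB. HIST1H3J was the H3 gene in this set, at -0.87. The filter fixed the direction of HIST1H2BL, HIST1H2BO and HIST1H3J in PC3, and of HIST1H2BE and HIST1H2BF in LNCaP. The H4 genes were HIST1H4D at -1.60, HIST1H4E at -1.28, HIST1H4I at -1.80 and HIST1H4K at -1.58. Adjusted p ran up to 0.0427, for HIST1H4D, whose call was lost in 14 of 18 alternatives; 13 of the 20 calls held in every alternative that could be fitted.

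The PC3 table also lists H3C2 and H3C3, the newer symbols of HIST1H3B and HIST1H3C, under IDs that the LNCaP table does not hold, so the counts and tests by gene ID did not use them and the H3 class is under-counted in PC3. H3C2 had 4.86, 10.2 and 7.24 FPKM with erastin, against 0.142, 1.64 and 2.39 FPKM with DMSO (log2 fold change 1.91, adjusted p 0.00686). H3C3 had 8.20, 4.26 and 8.53 FPKM with erastin, against 0.624, 1.36 and 0 FPKM with DMSO (log2 fold change 2.30, adjusted p 0.00132). In both, every erastin library lay above every DMSO library.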

How the results depend on the processing

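In LNCaP 11 rose with a filter at a mean of 5 FPKM (22 otherwise), and leaving out 1 library gave 16 to 27 higher and 0 to 1 lower; the 1 was HIST2H2AC without DMSO replicate 1. In PC3 22 rose at a mean of 5 FPKM and 25 at a DMSO mean of 1 FPKM (45 otherwise), with 43 to 46 on leaving out 1 library. These filters test fewer genes. The 17 genes with the higher change in PC3 became 11 with a pseudocount of 0.1, 32 without a filter, 4 at a mean of 5 FPKM, 11 with voom and 10 at a DMSO mean of 1 FPKM, and 14 to 18 on leaving out 1 library; the 3 with the higher change in LNCaP became 3 to 5, with 5 without LNCaP DMSO replicate 3. Apart from the fewer or more genes tested, the cause was not tested. The replicate block gave 26 in LNCaP and 45 in PC3.

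Scaling to protein-coding totals moved the median of all genes from -0.02 to 0.10 in LNCaP and from 0.00 to 0.18 in PC3, and the histone median to 1.33 and 1.96. Under it the log2 ratios of PC3 sums were 1.69 for H2A (1.46 otherwise), 1.44 for H3 (1.22), 2.44 for proximal HIST1 (2.22), 1.97 for HIST2 (1.75) and 2.54 for all genes (2.32); without near-identical copies HIST2 gave 1.58. In settings chosen after seeing the data, the PC3 H3 sum gave 1.49 with H3C2 and H3C3, and leaving out a cluster's leading gene gave 0.94 for HIST2 in LNCaP (2.23 otherwise) and 2.20 for HIST2, 2.505 for proximal HIST1 and 2.77 for HIST3 (0.65 otherwise) in PC3. Leaving out 1 library put the log2 ratio of the LNCaP HIST3 sum between -0.22 and 0.30.

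Signs turned for values near 0 that were not called. On leaving out 1 library, the LNCaP values ran from -0.22 to 0.30 for HIST3H2A, -0.068 to 0.52 for HIST1H4J, -0.10 to 0.32 for HIST1H3B and -0.087 to 0.47 for HIST1H4K, and the differences between lines from -0.088 to 0.070 for HIST1H3E, -0.42 to 0.22 for HIST2H2AA4 and -0.43 to 0.20 for HIST1H3A. The difference of HIST1H3E was also 0.023 with pseudocount 0.1, 0.032 with quantile normalization and 0.031 with voom, and that of HIST2H2AA4 0.083 with quantile normalization. Of called genes, 16 of 22 in LNCaP, 42 of 45 in PC3 and 13 of 20 differences kept their call in every alternative.

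Over all genes, counts moved by over 1.5 times in LNCaP with the block (3236 higher, 3657 lower) and at a mean of 5 FPKM (1065 and 1507), and without erastin replicate 1 (832 and 1393), erastin replicate 2 (1047 and 1541) or DMSO replicate 2 (1123 and 1598), against 1894 and 2418. In PC3 they moved at a mean of 5 FPKM (2446 and 2794) and a DMSO mean of 1 FPKM (3289 higher), against 5232 and 4982. For the difference they were 3960 and 5759 without a filter and 1259 and 1217 at a mean of 5 FPKM, against 2528 and 2720. Short models near 1 FPKM rest on few reads, which limits their precision.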
